A study of Homo sapiens with 12 samples.

Results

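The response of wild-type (WT) lens epithelial cells to hydrogen peroxide (H2O2) was described from 6 of the 12 RNA-seq libraries of the series, 3 untreated and 3 treated, across all 58735 genes of the count table. The cells were HLE-B3, a human lens epithelial cell line immortalized with a hybrid virus that carries the SV40 large T antigen, a viral protein known to bind p53 and RB1. The untreated libraries are labelled 0 h and had no H2O2, and the treated ones were collected after 200 μM H2O2 for 12 h. No untreated culture kept for 12 h was analysed here, so exposure to H2O2 and 12 h of culture cannot be told apart in any difference below. Neither group carries an engineered mutation. The other 6 libraries come from HLE-B3 cells in which ATG7, an enzyme needed to form autophagosomes, was knocked out with CRISPR/Cas9 (ATG7 KO), under the same pair of conditions, and are used only where the responses of both genotypes are compared.

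H2O2 is a natural constituent of the fluid around the lens, and the lens epithelium, a single layer of cells under the anterior capsule, is the tissue's main site of antioxidant enzymes and of cell division. In most cells H2O2 oxidizes reactive cysteines and breaks DNA. It thereby engages several known programmes, among them NRF2 with its antioxidant genes, p53 with its arrest and death genes, the MAP kinases with the early genes of AP-1, NF-κB with its cytokines, HSF1 with the heat shock chaperones, and ATF4 with the genes of the integrated stress response.

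The 6 libraries held between 15602183 and 17462594 reads on genes. More genes had at least 1 read with H2O2 (26542 to 27504) than without (23500 to 24115). Libraries of a group correlated at a mean r of 0.996 across genes. The lens label was checked against 34 lens genes. Of these, 26 were under 1 FPKM (fragments scaled to gene length and to library size) in both groups and 7 had no read in any of the 6 libraries. The crystallin gene CRYAA was at a mean of 0 FPKM untreated, and the defining lens regulators FOXE3 and PROX1 were at 0.0278 and 0.00826 FPKM. PAX6, the eye field regulator, had 1.23, 1.22 and 1.35 FPKM in the untreated libraries and 0.705, 0.793 and 0.830 FPKM with H2O2. Markers of other cell types were low apart from fibroblast genes, of which only 3 of 6 were under 1 FPKM in both groups. The 6 fibroblast genes summed to between 35.2 and 36.3 FPKM untreated and between 25.9 and 26.8 with H2O2, mostly THY1, while DCN and LUM were at 0.00149 and 0.168 FPKM untreated. All 6 corneal and all 6 retinal markers stayed under 1 FPKM in both groups, the 6 endothelial markers summed to at most 0.902 FPKM and the 6 immune markers to at most 2.69 FPKM. In bulk RNA of this kind, fewer cells of a state and less RNA per cell cannot be told apart.

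Of 15913 genes with enough reads to test, 4915 (30.9%) rose and 4797 (30.1%) fell with H2O2, where rose and fell mean an adjusted p under 0.01 in edgeR's quasi-likelihood test. A gene was called higher or lower when, besides, its log2 fold change was beyond 1 and its mean FPKM was above 1 in at least 1 group. By these thresholds 1161 genes (7.30%) were called higher and 834 (5.24%) lower. Counts of members in the gene lists below are to be read against these shares. Some genes belong to more than 1 list, such as BAX, a p53 target and a BCL2 family gene. Counts of different lists are therefore not separate from each other. In an alternative fit of all 12 libraries of the series the ATG7 KO libraries share the estimate of the spread, and where that fit ended the call of a gene named here its adjusted p is given beside the gene. The 3 values with H2O2 did not overlap the 3 without in 1153 of the higher and 828 of the lower genes. These genes had already passed the thresholds in the same 6 libraries, so the counts are a description and no separate support. The share of all genes tested without overlap is not given here. The median log2 fold change of all genes tested was −0.01. A total of 57 called genes went from under 0.1 to above 1 FPKM, and 1 went the opposite way, CHAD, a cartilage matrix protein, with 0.955, 1.42 and 0.750 FPKM untreated and 0.0982, 0 and 0.161 FPKM treated.

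Among called genes above 1 FPKM in both groups with no overlap, the largest rises were those of stress cytokines, growth arrest genes and early response genes. GDF15, a secreted cytokine of stressed cells, had 222, 261 and 238 FPKM with H2O2 against 1.98, 1.51 and 1.05 FPKM without, a 158-fold rise (log2 fold change 7.30, SE 0.11, adjusted p = 1.37e-16). It is annotated on chromosome 19 from 18374731 to 18389176 (GRCh38). BTG2, an antiproliferative co-regulator of mRNA decay, had 1.25, 0.828 and 1.001 FPKM without H2O2 and 69.1, 74.8 and 60.8 FPKM with it, and rose 66.3-fold. RRAD, a small GTPase that is induced by p53, rose from 3.09 to 168 FPKM. The 12 largest rises also held CDKN1A, IL6, DUSP5, ATF3, IL1B and CSF2, described below, ACER2, a Golgi ceramidase that rose from 1.63 to 30.4 FPKM, and EFNB1, a membrane-bound ephrin ligand that rose from 9.65 to 194 FPKM. AL158206.1, a sense-overlapping transcript just downstream of ACER2, rose from 1.22 to 20.8 FPKM, and the strand setting of the counting is not given in the sources used here. No overlap between the groups was part of the rule that chose these genes, so their separation is no further result.

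The 12 largest falls among such genes were mostly mitotic genes and small genes of the mitochondrial genome. ASPM, a spindle pole protein, had 22.97, 21.8 and 23.04 FPKM in the untreated libraries and 3.02, 3.05 and 3.57 FPKM with H2O2, a 7.05-fold fall (log2 fold change −2.82, SE 0.056, adjusted p = 9.39e-39). CENPE, CENPF and KIF18A, which act at kinetochores and spindle microtubules, fell by 2.41, 2.26 and 2.34 on the log2 scale. PIF1, a DNA helicase, fell from 4.87 to 1.11 FPKM, and UTRN, the dystrophin relative utrophin, fell from 14.9 to 3.49 FPKM. The list also held AL139396.1, a processed pseudogene. KRT7-AS, an antisense transcript at the keratin 7 gene, fell from 6.72 to 1.43 FPKM, and reads of a gene and its antisense partner cannot be separated when the strand setting is unknown.

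**Figure D1:**
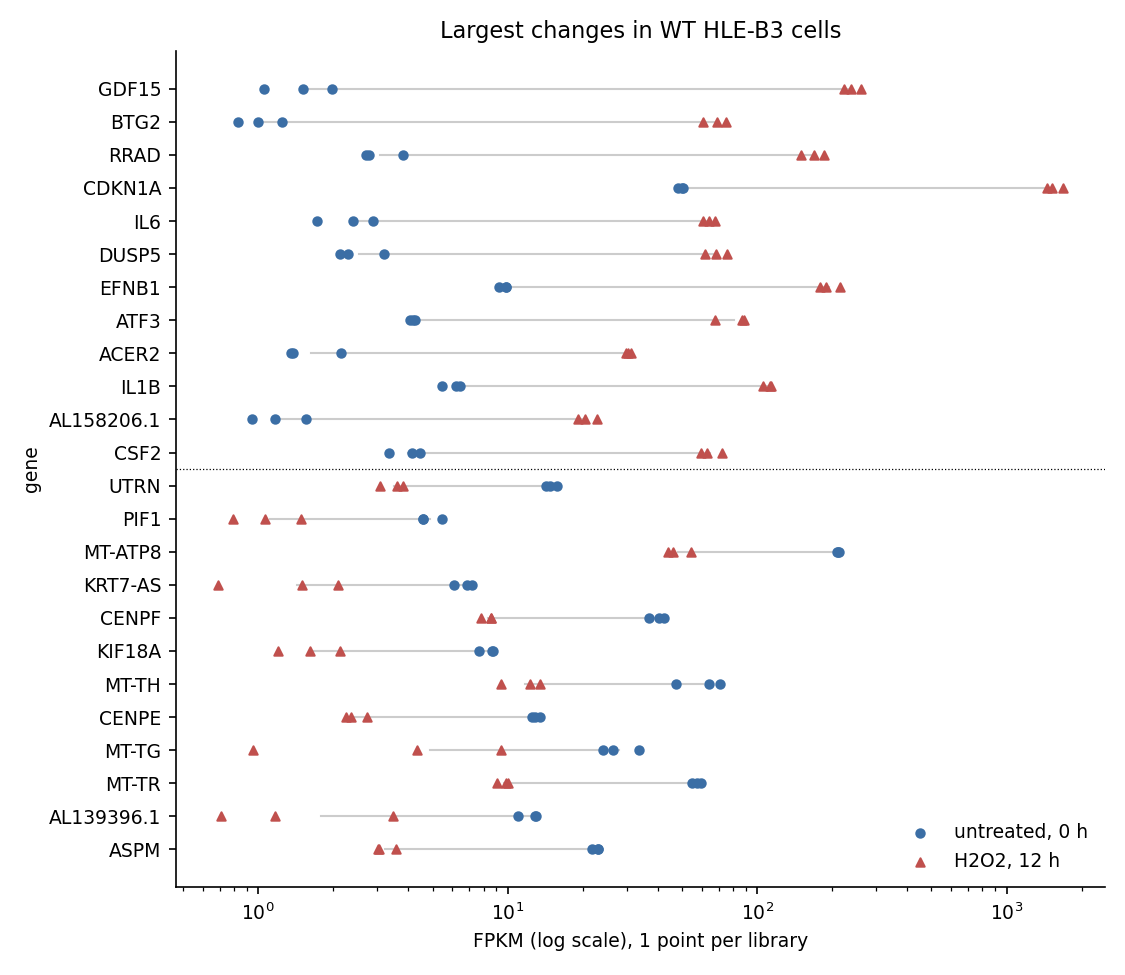
FPKM of the leading genes in each of the 6 WT libraries on a log axis, with untreated and H2O2-treated libraries as separate points. The genes plotted were chosen for having no overlap between the groups. GDF15 lay between 1.05 and 1.98 FPKM untreated and between 222 and 261 FPKM with H2O2.

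In absolute terms the largest increases of mean FPKM were those of the mitochondrial ribosomal RNAs MT-RNR2 and MT-RNR1, of CDKN1A, of GADD45A and of CXCL8. The largest decreases were those of mitochondrial mRNAs. CDKN1A alone rose from a mean of 49.5 ± 1.05 to 1550.1 ± 114 FPKM (SD, n = 3).

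**Figure D2:**
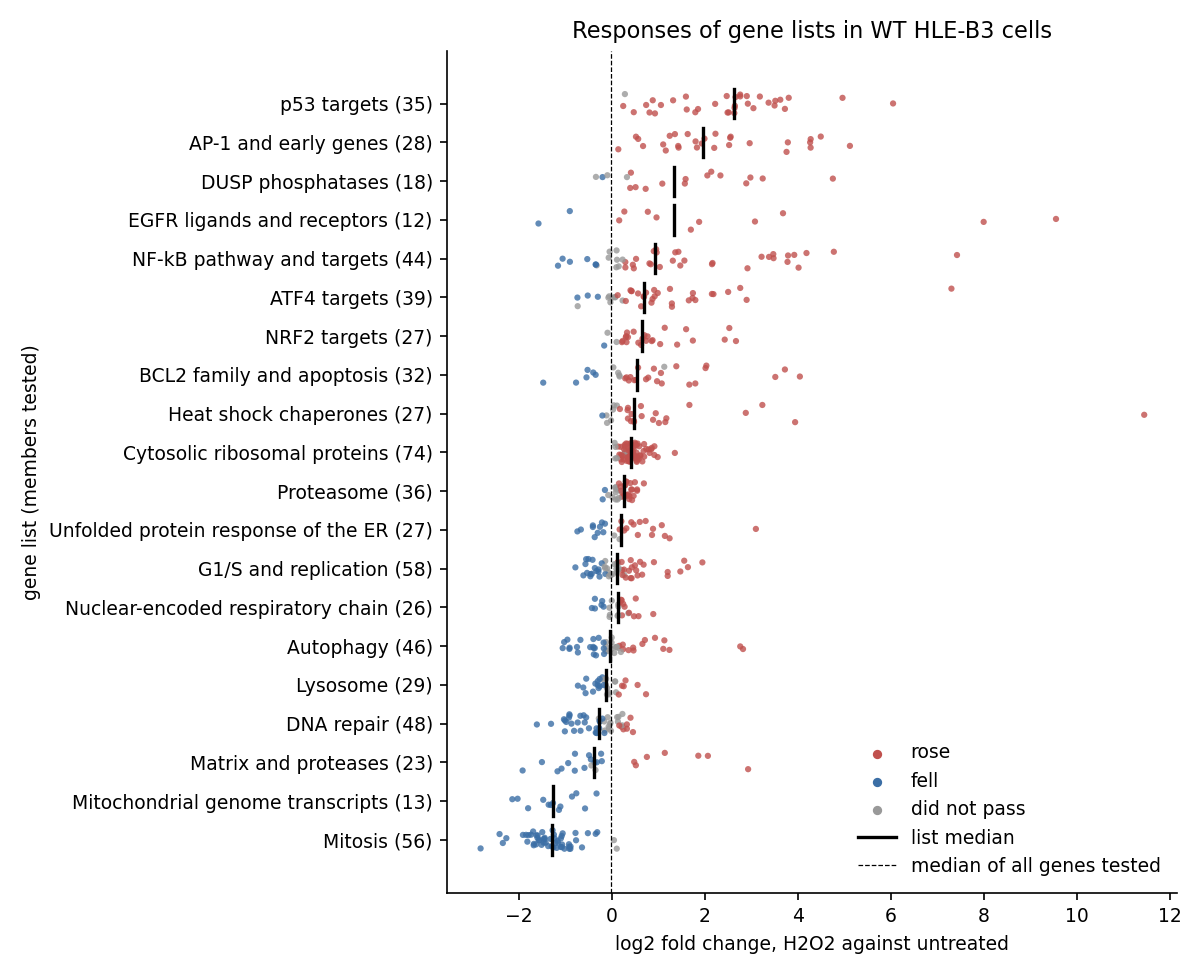
Log2 fold changes with H2O2 of the tested members of each gene list, 1 point per gene, with the median of each list and of all genes tested marked. The p53 targets (median 2.64) have the highest median of the lists plotted and the mitosis genes (median −1.28) the lowest, while the median of all genes is −0.01.

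Targets of the transcription factor p53 rose nearly throughout the list. Of 35 tested targets 34 rose, 27 were called higher and none fell, with a median log2 fold change of 2.64 against −0.01 for all genes tested, of which 30.9% rose. CDKN1A, the CDK inhibitor p21 that arrests the cycle, had 50.3, 49.9 and 48.3 FPKM untreated and 1521, 1676 and 1453 FPKM treated (log2 fold change 4.96, SE 0.049, adjusted p = 1.46e-49). MDM2, the ubiquitin ligase that degrades p53, had 64.1, 70.3 and 64.7 FPKM with H2O2 against 6.16, 5.71 and 5.63 FPKM without. Both genes were more than 10 times higher in each treated library than in any untreated one. Growth arrest and DNA damage genes moved alike: GADD45A had 804, 850.5 and 665 FPKM with H2O2 against 52.03, 57.04 and 55.98 FPKM without, and SESN1 and SESN2, stress-induced inhibitors of mTORC1, rose from 2.22 to 18.4 FPKM and from 11.5 to 78.7 FPKM. PPM1D, a phosphatase that switches the pathway off, rose from 4.89 to 27.6 FPKM.

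The death genes among p53 targets rose as well. BBC3 (PUMA) had 2.60, 2.79 and 3.15 FPKM without H2O2 and 33.2, 35.01 and 30.1 FPKM with it, and PMAIP1 (NOXA) had 30.8, 29.3 and 30.4 FPKM in the untreated libraries and 403, 434 and 364 FPKM with H2O2. These encode BH3-only proteins that release BAX and BAK1. Death receptors rose too: FAS went from 6.57 to 44.8 FPKM, TNFRSF10A from 0.995 to 10.4 FPKM and TNFRSF10B from 36.4 to 203 FPKM. TIGAR, a phosphatase that diverts glucose to the pentose phosphate pathway, rose from 0.293 to 2.22 FPKM, and FDXR, a mitochondrial ferredoxin reductase, rose from 5.69 to 52.1 FPKM. The smallest changes in the list were those of PLK2 (log2 fold change 0.25, adjusted p = 6.23e-07) and RCHY1 (0.29, adjusted p = 0.0229), and RCHY1 was the one tested member that did not pass.

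All 28 early response genes rose and 24 of them were called higher, with a median log2 fold change of 1.97. These are genes that growth factors and stress switch on within minutes, and here they were measured at 12 h. FOS, a subunit of AP-1, had 0.284, 0.285 and 0.435 FPKM untreated and 11.5, 9.67 and 14.1 FPKM treated (log2 fold change 5.12, SE 0.17, adjusted p = 3.38e-20). JUN, its partner, had 155, 145 and 159.7 FPKM with H2O2 against 40.1, 37.7 and 37.2 FPKM without. ATF3, a stress-induced repressor, had 4.26, 4.18 and 4.04 FPKM without H2O2 and 88.3, 86.9 and 68.1 FPKM with it, and EGR1, a zinc finger regulator of growth genes, had 10.7, 9.15 and 8.61 FPKM in the untreated libraries and 59.9, 51.7 and 56.5 FPKM with H2O2. Rises of 2 log2 units or more were also those of FOSB, NR4A3, EGR2, EGR3, KLF4, GEM, NR4A2, IER3, IER5 and RND3. MYC had 22.4, 21.05 and 22.6 FPKM untreated and 50.4, 47.8 and 44.8 FPKM treated.

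Feedback inhibitors of MAP kinase signalling rose in parallel. Of 18 dual-specificity phosphatases of the DUSP family 14 rose, 9 were called higher and 1 fell, DUSP3 (log2 fold change −0.20, adjusted p = 0.0133 in the fit of all 12 libraries). DUSP5, which acts on nuclear ERK, had 68.4, 75.5 and 61.96 FPKM with H2O2 against 2.28, 2.12 and 3.19 FPKM without, and DUSP6, which acts on cytoplasmic ERK, had 1.66, 1.94 and 1.91 FPKM without H2O2 and 13.02, 14.2 and 13.9 FPKM with it. DUSP1, which acts on p38 and JNK, had 29.7, 26.7 and 26.4 FPKM in the untreated libraries and 267, 283 and 239 FPKM with H2O2. The ERK inhibitors SPRY4, SPRY1 and SPRY2 rose by 3.08, 1.88 and 1.70 on the log2 scale.

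EREG, AREG and HBEGF, ligands of the EGF receptor, rose, and EREG and AREG did so from under 1 FPKM. EREG had 0, 0 and 0 reads in the untreated libraries and 97, 81 and 93 with H2O2, or 1.0005, 0.920 and 0.946 FPKM with H2O2 against 0, 0 and 0 FPKM without. AREG had 0.174, 0.363 and 0.273 FPKM untreated and 64.6, 76.2 and 71.8 FPKM treated, and HBEGF had 88.4, 90.5 and 78.5 FPKM with H2O2 against 6.27, 6.45 and 7.22 FPKM without. These 3 ligands were separated between the groups. EGF, which is no member of the list and was added after its values were seen, was called lower, with 122, 145 and 115 reads untreated and 49, 52 and 55 with H2O2 (log2 fold change −1.18). The receptors did not rise by the same order: EGFR had a log2 fold change of 0.16 (adjusted p = 0.00118, but 0.470 in the fit of all 12 libraries, 0.0321 with no filter on low counts, and between 0.011 and 0.0153 without untreated replicate 1, H2O2 replicate 1 or H2O2 replicate 2), and ERBB2 and ERBB3 fell by 0.90 and 1.57. Of the 12 tested genes of this list, 10 rose and 2 fell.

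Cytokines that NF-κB is known to drive rose by large factors, while the kinases and adaptors of the pathway moved both ways. Of 14 tested kinases and adaptors 4 rose, 3 fell, 7 did not pass and 1 was called higher. The kinases IKBKB and RIPK1 did not pass the test. Among 44 tested genes of the pathway and its targets, 30 rose, 6 fell, 19 were called higher and 2 lower (median log2 fold change 0.93). CXCL8, the neutrophil attractant interleukin-8, had 56.2, 54.4 and 47.3 FPKM without H2O2 and 729, 762 and 706 FPKM with it (log2 fold change 3.79, SE 0.052, adjusted p = 1.16e-36). IL6, an acute-phase cytokine, had 2.88, 2.39 and 1.71 FPKM in the untreated libraries and 60.8, 67.6 and 64.2 FPKM with H2O2, and IL1B, a pyrogenic cytokine, had 6.21, 6.46 and 5.46 FPKM untreated and 106, 113 and 113 FPKM treated. The colony-stimulating factor CSF2 rose from 3.98 to 64.9 FPKM and LIF, a cytokine of the IL6 family, rose from 10.4 to 158 FPKM. CSF3 was at 4, 2 and 2 reads untreated and 626, 491 and 683 with H2O2. TNF had no read in any untreated library and 18, 12 and 32 reads with H2O2, a mean of 0.736 FPKM. PTGS2, the inducible cyclooxygenase, rose from 0.456 to 4.29 FPKM.

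The feedback inhibitors of NF-κB were among the genes that rose. NFKBIA, which holds NF-κB in the cytoplasm, had 161, 149 and 155 FPKM with H2O2 against 48.97, 54.1 and 53.6 FPKM without, and TNFAIP3 (A20), a ubiquitin-editing enzyme that ends the signal, had 9.74, 9.78 and 9.35 FPKM without H2O2 and 113, 112 and 98.96 FPKM with it. RELA, the main transactivating subunit, rose by 0.29 on the log2 scale (adjusted p = 0.0114 in the fit of all 12 libraries), and the kinase genes IKBKB and RIPK1 had log2 fold changes of −0.064 (adjusted p = 0.324) and −0.044 (adjusted p = 0.48). PRKCI, an atypical protein kinase C, fell by 0.52. Members that went the other way from the cytokines included CCL2, a monocyte attractant, which fell from 27.1 to 13.1 FPKM, and BCL3, a nuclear IκB protein, which fell from 16.2 to 7.29 FPKM.

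Antioxidant genes under NRF2 rose in number but mostly by less than 1 log2 unit. Of 27 tested targets 24 rose, 6 were called higher and 1 fell, with a median log2 fold change of 0.66. HMOX1, which degrades heme, had 6.47, 6.92 and 6.91 FPKM in the untreated libraries and 45.6, 44.5 and 39.9 FPKM with H2O2 (log2 fold change 2.67, SE 0.068, adjusted p = 1.36e-34). SRXN1, which repairs overoxidized peroxiredoxins, had 1.81, 1.65 and 1.94 FPKM untreated and 5.51, 6.19 and 4.78 FPKM treated, and NQO1, a quinone reductase, had 35.7, 35.8 and 38.6 FPKM with H2O2 against 15.2, 13.3 and 12.9 FPKM without. These 3 genes were higher in each treated library than in any untreated one. The glutathione and thioredoxin genes changed less: GCLM, the modifier subunit of glutathione synthesis, rose by 0.88, TXNRD1 by 0.86 and GCLC, the catalytic subunit, by 0.30. The small MAF partners MAFF, MAFK and MAFG rose by 2.43, 1.14 and 1.04. NFE2L2, which encodes NRF2, rose by 0.23 and its inhibitor KEAP1 by 0.32. In the fit of all 12 libraries GCLC, NFE2L2 and KEAP1 did not pass (adjusted p = 0.0124, 0.0346 and 0.0112).

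Enzymes that remove H2O2 and other oxidants directly moved both ways. Of 21 tested genes 8 rose and 3 fell, with a median of 0.05. In the fit of all 12 libraries 2 rose. CAT, which encodes catalase, fell, with 8.26, 7.33 and 8.58 FPKM without H2O2 and 5.58, 5.52 and 6.28 FPKM with it. GPX1, the main cytosolic glutathione peroxidase, rose from 70.04 to 133 FPKM, and the mitochondrial superoxide dismutase SOD2 had a log2 fold change of 0.30 (adjusted p = 0.0536 in that fit). PRDX2 and PRDX3, peroxiredoxins of cytosol and mitochondria, had log2 fold changes of −0.063 (adjusted p = 0.268) and 0.048 (adjusted p = 0.399).

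Genes of metal handling rose. Of the metallothionein list, 5 genes were tested and all 5 rose: the zinc exporter SLC30A1 from 6.07 to 42.6 FPKM, MT1E from 1.43 to 5.62 FPKM, MT1X from 0.883 to 3.20 FPKM, MT2A from 109 to 185 FPKM, and MTF1, the zinc sensor that drives the others, from 5.21 to 7.93 FPKM (adjusted p = 0.0121 in the fit of all 12 libraries). MT1X and MT1E are close paralogs, and the handling of reads that fit several copies is not given in the sources used here. The metal response element that MTF1 binds has the core TGCNCNC. It was present on either strand in the 300-base RefSeq promoters (GRCh38.p14, 250 bases before to 50 after the start) of 4 of 4 listed genes with a promoter, and in 55.2% of all 27305 promoters. The stretch of the MT1X promoter with 4 such cores, in capitals, is shown because this gene rose and holds the most matches among the promoters printed here.
MT1X, chr16:56682310-56682430, plus strand: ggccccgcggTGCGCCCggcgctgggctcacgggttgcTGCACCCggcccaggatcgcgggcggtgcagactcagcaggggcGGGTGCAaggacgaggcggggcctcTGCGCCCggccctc
A list of iron and ferroptosis genes was mixed, with 9 of 18 tested genes rising and 5 falling. Of its 9 tested genes of iron uptake, export and storage 3 rose and 4 fell. Of its 9 tested genes of lipid peroxidation 6 rose and 1 fell. FTH1, the ferritin heavy chain, rose from 137 to 190.2 FPKM, and SAT1, a polyamine acetyltransferase that p53 is known to induce, rose from 32.2 to 348 FPKM. GPX4, which reduces lipid peroxides, had a log2 fold change of 0.13 (adjusted p = 0.0147).

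Heat shock chaperones divided into a strongly and a weakly changed set. Of 27 tested genes 20 rose, 8 were called higher and 1 fell, with a median of 0.48. The one that fell, the mitochondrial chaperone TRAP1, changed by −0.20 (adjusted p = 0.00403, but 0.0373 in the fit of all 12 libraries, and between 0.0146 and 0.0246 without untreated replicate 3, H2O2 replicate 2 or H2O2 replicate 3). HSPA6, an HSP70 gene that is silent in most resting cells, had 2, 2 and 0 reads in the untreated libraries and 4016, 2846 and 4593 reads with H2O2, or 99.9, 77.96 and 113 FPKM with H2O2 against 0.0484, 0.0459 and 0 FPKM without. HSPA1A, the main inducible HSP70, had 1.99, 2.54 and 2.40 FPKM in the untreated libraries and 30.8, 31.8 and 44.7 FPKM with H2O2, and its neighbour HSPA1B had 24.7, 25.9 and 26.9 FPKM untreated and 197, 155 and 222 FPKM treated. DNAJB1, their co-chaperone, rose from 61.8 to 198 FPKM. In each of these genes H2O2 replicate 3 was highest. HSPA1A and HSPA1B are near-identical in long stretches, so their reads may be shared between them. CRYAB, the small heat shock protein αB-crystallin of the lens, had 1.98, 1.43 and 1.53 FPKM with H2O2 against 0.132, 0.197 and 0.186 FPKM without. The constitutive HSP70 gene HSPA8 did not pass the test, with 309, 284 and 308 FPKM without H2O2 and 266, 261 and 317 FPKM with it (adjusted p = 0.262), nor did HSP90AA1 (log2 fold change 0.11, adjusted p = 0.0135).

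The letters GAANNTTC, a pair of the inverted units that HSF1 binds, were searched in the same 300-base promoters. They were found in 8 of 24 heat shock promoters (33.3%) and in 6.9% of all promoters, and the pattern reads the same on both strands. The stretches around the match, in capitals, are shown for HSPA6 and HSPA1A, which were called higher, and for HSPA8, which did not pass, because the match was present in each of them.
HSPA6, chr1:161524450-161524500, plus strand: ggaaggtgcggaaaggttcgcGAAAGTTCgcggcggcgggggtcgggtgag
HSPA1A, chr6:31815418-31815468, plus strand: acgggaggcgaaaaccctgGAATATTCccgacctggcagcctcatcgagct
HSPA8, chr11:123062161-123062211, minus strand: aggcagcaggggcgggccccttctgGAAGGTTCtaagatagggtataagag
The match lay 69 bases before the start of HSPA6, 106 before that of HSPA1A and 50 before that of HSPA8. A match of these letters is a description of the sequence and was found in genes with and without a rise.

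Most genes of the integrated stress response rose, and those of the unfolded protein response of the endoplasmic reticulum (ER) moved both ways. Among 39 tested ATF4 targets 28 rose, 3 fell and 13 were called higher, with a median of 0.70. The share differed by role: 9 of 9 regulators rose, as did 5 of 5 secreted and other genes and 5 of 7 amino acid transporters. Of the amino acid synthesis genes 5 of 10 rose, and of the tRNA synthetase genes 4 of 8. DDIT3 (CHOP), a death-related transcription factor, had 3.20, 3.41 and 3.32 FPKM in the untreated libraries and 11.2, 9.34 and 10.9 FPKM with H2O2. TRIB3, a pseudokinase that restrains AKT, rose from 7.31 to 32.7 FPKM, PPP1R15A (GADD34), which restores translation, rose from 26.4 to 151 FPKM, and ATF4 itself rose from 106 to 201 FPKM. ASNS, asparagine synthetase, had a log2 fold change of 0.24 (adjusted p = 0.271), and AARS, alanyl-tRNA synthetase, fell by 0.51, so the list did not move as 1 block. Of 27 tested ER genes 15 rose, 10 fell and 4 were called higher (median 0.21). HSPA5 (BiP), the ER chaperone, had 195, 177 and 190.0 FPKM untreated and 477, 451 and 409 FPKM treated, and ERN1 (IRE1), a sensor of unfolded proteins, rose from 2.07 to 17.8 FPKM. HSP90B1 and PDIA4, ER folding enzymes, fell by 0.30 and 0.36, and HSP90B1 had an adjusted p of 0.0495 in the fit of all 12 libraries.

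BCL2 family genes of both the death and the survival side rose, whereas 4 inhibitors of apoptosis fell. In this list of 32 tested genes 21 rose, 6 fell, 10 were called higher and 1 lower (median 0.55). Besides BBC3 and PMAIP1, the pro-death genes BCL2L11 (BIM), BAK1 and BAX rose from 2.28 to 9.28 FPKM, from 19.4 to 80.2 FPKM and from 22.4 to 46.8 FPKM. On the survival side, BCL2A1 had 7.04, 8.23 and 8.92 FPKM with H2O2 against 0.580, 0.549 and 0.310 FPKM without, BCL2L1 (BCL-XL) had 13.6, 14.4 and 12.9 FPKM without H2O2 and 41.99, 45.2 and 43.4 FPKM with it, and MCL1 had 62.3, 59.97 and 61.9 FPKM in the untreated libraries and 132, 136 and 122 FPKM with H2O2. APAF1, the scaffold that activates caspase-9, rose from 6.53 to 22.8 FPKM, while CASP9 fell from 2.22 to 1.53 FPKM. BMF, another BH3-only gene, fell by 1.47 and was the gene called lower. Of 7 genes of the inhibitors of apoptosis and their antagonists 2 rose and 4 fell (median −0.34). BIRC2, BIRC3, BIRC5 and BIRC6 had log2 fold changes of −0.40, −0.34, −0.77 and −0.52, and BIRC6 had an adjusted p of 0.0615 in the fit of all 12 libraries. XIAP, an inhibitor of caspases, rose by 0.29. DIABLO, which binds and blocks these inhibitors, had a log2 fold change of 0.91 (adjusted p = 0.00249, but 0.0268 with DESeq2, and between 0.0102 and 0.0348 without untreated replicate 1 or 3 or H2O2 replicate 1 or 2).

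Genes of mitosis fell nearly throughout the list. Of 56 tested genes 54 fell, 42 were called lower and none rose, with a median log2 fold change of −1.28, whereas 30.1% of all genes tested fell and 5.24% were called lower. PLK1, a kinase that drives mitotic entry, had 27.4, 27.8 and 28.97 FPKM untreated and 10.3, 8.64 and 9.06 FPKM treated (log2 fold change −1.59, SE 0.058, adjusted p = 2.97e-28). CCNB1, the cyclin partner of CDK1, had 27.6, 26.9 and 30.95 FPKM with H2O2 against 86.2, 78.9 and 85.1 FPKM without. TOP2A, which untangles sister chromatids, had 118, 108 and 114 FPKM without H2O2 and 34.7, 32.8 and 38.97 FPKM with it, and MKI67, the proliferation marker Ki-67, had 47.8, 46.6 and 54.4 FPKM in the untreated libraries and 15.9, 15.3 and 15.1 FPKM with H2O2. Treated and untreated libraries did not overlap in these genes. All 16 kinesin and spindle genes of the list fell and 15 were called lower. AURKB and BIRC5, of the chromosomal passenger complex, fell by 0.88 and 0.77, less than the list's median. The 2 that did not pass were PTTG1 (securin, 0.11, adjusted p = 0.037) and PKMYT1 (0.05, adjusted p = 0.513).

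Genes of the G1/S step and of DNA replication did not share this fall. Of 58 tested genes 24 rose, 17 fell and 6 were called higher, with none called lower and a median of 0.11. In the fit of all 12 libraries 15 rose. The direction differed by role. Cyclins and E2F factors rose in 10 of 15: CCND1, cyclin D1, had 38.7, 41.01 and 41.8 FPKM untreated and 114, 119.8 and 106 FPKM treated, CCNE2, cyclin E2, rose from 5.99 to 13.9 FPKM, E2F7, a repressor that p53 is known to induce, rose from 22.9 to 88.7 FPKM, and CDC25A, the phosphatase that activates CDK2, rose from 5.82 to 17.2 FPKM. Polymerase and clamp genes fell in 10 of 19, among them POLA1 (−0.61) and POLD1 (−0.56), while PCNA, the clamp itself and a known p53 target, had 533, 541 and 529.7 FPKM with H2O2 against 176, 159.7 and 177 FPKM without. The helicase genes MCM2, MCM5 and MCM7 had log2 fold changes of 0.11 (adjusted p = 0.0327), −0.014 (adjusted p = 0.813) and 0.56 (adjusted p = 2.33e-16). RRM2 and TYMS, which supply nucleotides, had log2 fold changes of −0.14 (adjusted p = 0.0147) and 0.43 (adjusted p = 3.18e-10). Among 7 CDK inhibitors 4 rose and 2 fell: CDKN1C (p57) had 0.0232, 0.0219 and 0 FPKM without H2O2 and 0.476, 0.446 and 0.328 FPKM with it, whereas CDKN1B (p27) fell from 13.7 to 6.80 FPKM and CDKN2C (p18) fell from 35.6 to 18.4 FPKM.

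**Figure D3:**
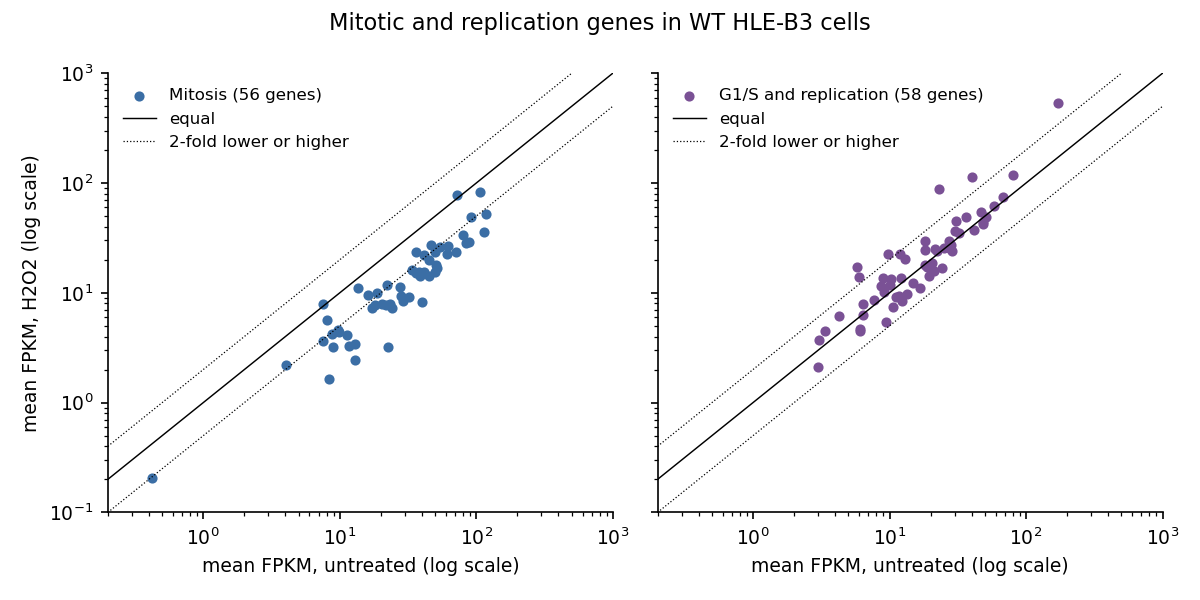
Mean FPKM with H2O2 against mean FPKM untreated on log axes, 1 point per gene, for 56 mitosis genes and 58 genes of G1/S and replication, with lines for equal and for 2-fold different values. All but PTTG1 and PKMYT1 of the mitosis genes lie below the line of equality, while G1/S genes lie on both sides of it.

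Promoter letters of the mitosis and G1/S genes are given here because the lists moved differently. In mitotic promoters the DREAM complex is known to bind the cell cycle homology region TTTGAA, often with the CCAAT box of NF-Y upstream, and E2F binds TTTNGCGC at G1/S genes. TTTGAA was found on either strand in 33 of 46 mitosis promoters (71.7%), in 3 of 47 G1/S promoters (6.38%) and in 15.4% of all promoters. CCAAT was found in 35 of the 46 (76.1%) and in 35.7% of all. TTTNGCGC was found in 18 of 47 G1/S promoters (38.3%), in 3 of 46 mitosis promoters and in 1.8% of all. Among genes called lower with a promoter, 19.6% held TTTGAA, against 9.4% of those called higher and 9.8% of all genes tested. The genes called lower include mitosis genes just counted, so their share is no separate observation. The mitosis genes PLK1, CCNB2, BUB1B and KIF18A are shown as members that fell, with TTTGAA and CCAAT in capitals, and the G1/S genes CDC25A, MCM7 and E2F1 beside them as members that rose, with TTTNGCGC in capitals. The stretches of CDC25A and MCM7 also hold CCAAT, on the other strand in CDC25A and overlapping the E2F letters in MCM7, in lower case or in part.
PLK1, chr16:23678805-23678877, plus strand: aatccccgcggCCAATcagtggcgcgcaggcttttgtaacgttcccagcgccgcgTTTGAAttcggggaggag
CCNB2, chr15:59105052-59105134, plus strand: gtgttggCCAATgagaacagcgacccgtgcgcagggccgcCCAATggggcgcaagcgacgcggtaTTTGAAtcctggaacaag
BUB1B, chr15:40160989-40161061, plus strand: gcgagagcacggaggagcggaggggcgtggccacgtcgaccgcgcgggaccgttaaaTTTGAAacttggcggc
KIF18A, chr11:28108151-28108216, minus strand: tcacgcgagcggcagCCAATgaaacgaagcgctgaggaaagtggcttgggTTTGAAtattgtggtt
CDC25A, chr3:48188437-48188487, minus strand: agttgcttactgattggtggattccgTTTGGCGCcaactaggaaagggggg
MCM7, chr7:100101377-100101437, minus strand: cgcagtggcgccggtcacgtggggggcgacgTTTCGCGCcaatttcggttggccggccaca
E2F1, chr20:33686375-33686435, minus strand: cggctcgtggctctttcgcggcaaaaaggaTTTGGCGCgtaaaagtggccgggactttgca
The log2 fold changes of PLK1, CCNB2, BUB1B and KIF18A were −1.59, −1.27, −1.79 and −2.34, and CDC25A, MCM7 and E2F1 rose by 1.56, 0.56 and 0.27 (adjusted p = 0.0156 for E2F1 in the fit of all 12 libraries). The stretch of BUB1B, a spindle checkpoint kinase, holds TTTGAA but not CCAAT, and those of PLK1, CCNB2 and KIF18A hold both.

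DNA repair genes fell more often than they rose. Of 48 tested genes 27 fell, 7 rose and 5 were called lower (median −0.26). ATM, the kinase that senses double-strand breaks, had 4.79, 4.58 and 4.58 FPKM in the untreated libraries and 1.44, 1.49 and 1.66 FPKM with H2O2, and ATR, its counterpart at stalled forks, fell from 5.23 to 2.57 FPKM. BRCA1, of homologous recombination, fell from 14.8 to 7.91 FPKM, and BRIP1, its helicase partner, fell from 15.8 to 6.42 FPKM. The base excision enzyme OGG1, which removes oxidized guanine, had a log2 fold change of −0.16 (adjusted p = 0.18). APEX1, which cuts the site that OGG1 leaves, had a log2 fold change of 0.25, with an adjusted p of 5.07e-05 but of 0.211 in the fit of all 12 libraries, and the log2 fold change was 0.066 (adjusted p = 0.277) once the trend with gene length was removed. ATM spans 146619 bases of the genome and BRIP1 182256, and the relation of the response to gene length is given at the end.

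Transcripts of the mitochondrial genome divided between ribosomal RNA and mRNA. All 13 mRNAs fell and 9 were called lower, with a median of −1.26, while both ribosomal RNAs rose. MT-RNR1, the 12S ribosomal RNA, had 602, 623 and 624 FPKM untreated and 4899, 4700.3 and 4428 FPKM treated (log2 fold change 2.92, SE 0.042, adjusted p = 1.77e-44), and MT-RNR2, the 16S ribosomal RNA, had 10850.4, 10303 and 10492 FPKM with H2O2 against 4492, 4346 and 4734 FPKM without. MT-CO1, a cytochrome oxidase subunit, had 9108, 7697 and 7980.1 FPKM without H2O2 and 3076, 3103 and 3547 FPKM with it (log2 fold change −1.35, SE 0.086, adjusted p = 1.33e-05). MT-ND1 and MT-ND2, of complex I, fell by 0.32 and 0.57, the smallest falls, and MT-ND5 and MT-ND6 by 1.80 and 2.02. Ribosomal RNAs lie nearest the heavy-strand promoter, MT-ND1 and MT-ND2 follow, and MT-ND6 is read from the other strand. The falls did not follow this order throughout. MT-CO1 and MT-CO2 changed by −1.35 and −1.47, and MT-CO3 and MT-ND3, which lie further on, by −1.10 and −0.85. A relation to position was not tested. MT-ATP8 had the largest fall of the mRNAs (−2.14), but it overlaps MT-ATP6 (−0.76, adjusted p = 0.00287, and 0.0108 and 0.0105 without untreated replicate 2 or 3) and their reads may be shared, as may those of MT-ND4L and MT-ND4. Of 12 tested transfer RNA genes 1 rose and 7 fell. They included MT-TR, MT-TG and MT-TH, which were among the 12 largest falls and are very short genes.

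**Figure D4:**
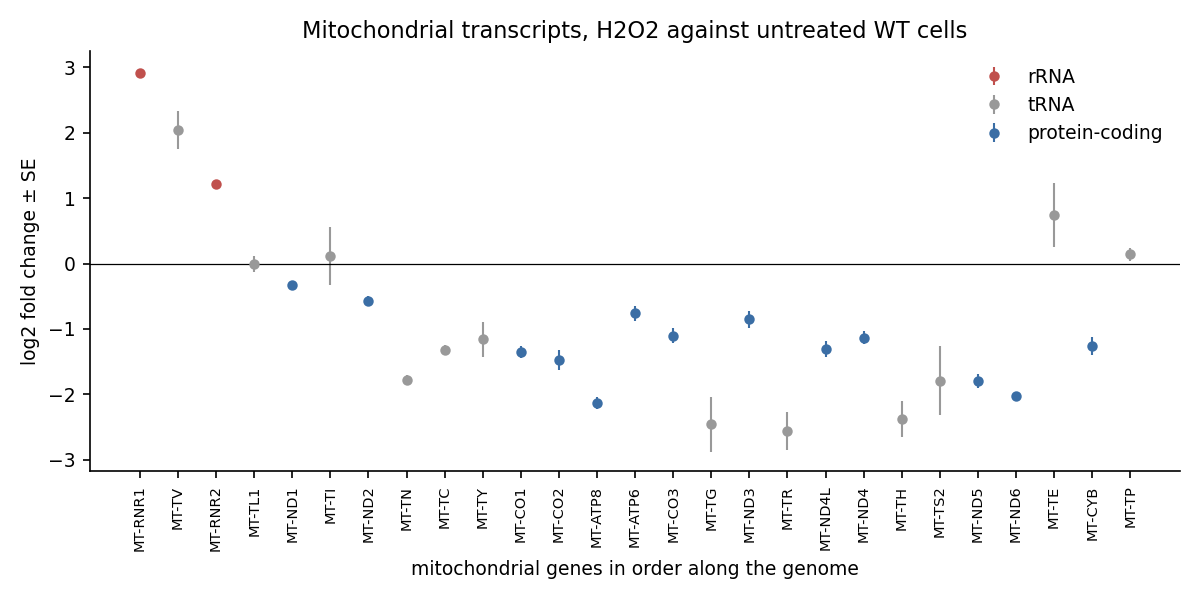
Log2 fold changes with H2O2 of tested genes of the mitochondrial genome in their order along it, with standard errors, by kind of gene. The ribosomal RNAs MT-RNR1 (2.92) and MT-RNR2 (1.22) lie above 0 and all 13 mRNAs below.

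As shares of all reads on genes, mitochondrial mRNAs went from 3.87% ± 0.263 (SD, n = 3) to 1.63% ± 0.182 and mitochondrial ribosomal RNAs from 0.791% ± 0.0245 to 2.08% ± 0.064. Each of these shares was separated between the groups, with an exact two-sided permutation p of 0.1, the smallest that 3 against 3 allows. Nuclear genes of the respiratory chain did not fall with the mitochondrial mRNAs. Of 26 tested genes 11 rose and 6 fell (median 0.14), and in the fit of all 12 libraries 3 rose. COX4I1 and ATP5F1A, nuclear subunits of complexes IV and V, had log2 fold changes of 0.14 (adjusted p = 0.0157) and −0.17 (adjusted p = 0.000404, and 0.326 in that fit).

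Genes of cytosolic ribosomal proteins rose by small amounts in near unison. Of 74 tested genes 69 rose, none fell and 1 was called higher, with a median of 0.42, and their share of all reads went from 3.26% ± 0.0769 to 4.17% ± 0.0951 (exact two-sided permutation p of 0.1). In the fit of all 12 libraries 7 rose. RPL26, of the large subunit, had the largest change and rose from 6.69 to 17.2 FPKM. RPS27L, a p53-induced relative that is no member of the list, rose by 0.93. Ribosomal protein genes are short, and after subtraction of the median of genes of like genomic span their median was 0.28. Of 36 tested proteasome genes 24 rose, 2 fell and none was called (median 0.28), and 5 rose in the fit of all 12 libraries. PSMA6 and PSMD14, of core and lid, rose by 0.69 and 0.47, and PSMD14 had an adjusted p of 0.0114 in that fit.

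Autophagy genes moved in both directions, and the share that rose was near that of all genes. Of 46 tested genes 14 rose (30.4%, against 30.9% of all genes) and 19 fell (41.3%, against 30.1%), and 5 were called higher and 2 lower (median −0.04). SQSTM1, the cargo adaptor p62, had 34.4, 33.03 and 35.01 FPKM in the untreated libraries and 53.002, 55.6 and 53.9 FPKM with H2O2 (log2 fold change 0.66, SE 0.042, adjusted p = 7.5e-19). MAP1LC3B, the autophagosome marker LC3B, had 10.1, 9.81 and 11.3 FPKM untreated and 20.99, 20.5 and 18.3 FPKM treated. DEPP1, a FOXO target, and DRAM1, a p53 target, rose from 0.546 to 3.89 FPKM and from 25.7 to 55.7 FPKM. ATG7 itself fell, with 1.99, 1.91 and 1.97 FPKM with H2O2 against 2.81, 2.64 and 2.21 FPKM without, although its log2 fold change of −0.39 turned to 0.015 once the trend with gene length was removed. BECN1, of the initiating lipid kinase complex, had a log2 fold change of 0.0015 (adjusted p = 0.982), ULK1 of −0.12 (adjusted p = 0.0282), and NBR1, a cargo adaptor like p62, fell by 1.05. Lysosomal genes fell in 13 of 29 and rose in 6, and the count that fell was 8 in the fit of all 12 libraries. LAMP1, a membrane protein of lysosomes, had a log2 fold change of −0.053 (adjusted p = 0.229), and the protease CTSB fell by 0.30.

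Of the 34 lens genes 11 had enough reads to test, 3 rose and 5 fell. CRYAB was given above. GJA1, the connexin 43 of epithelial gap junctions, rose from 26.1 to 43.5 FPKM, whereas CDH2, the N-cadherin of lens cells, fell from 163 to 98.98 FPKM and TFAP2A, an early lens regulator, fell from 15.4 to 7.49 FPKM. PAX6 fell by 0.71 (adjusted p = 0.0137 in the fit of all 12 libraries). The summed FPKM of the 34 genes went from between 210 and 221 to between 157 and 166. Most of each sum was CDH2, so the sums mainly follow that gene and do not describe the other lens genes. Genes of epithelial-mesenchymal transition did not move together, and the share that rose was near that of all genes. Of 18 tested genes 5 rose (27.8%, against 30.9% of all genes) and 8 fell (44.4%, against 30.1%), and 4 fell in the fit of all 12 libraries. SNAI2 and SNAI1, repressors that start the transition, rose from 4.12 to 17.9 FPKM and from 3.21 to 12.5 FPKM, while FN1 and COL1A1, its matrix products, fell from 143 to 62.98 FPKM and from 626 to 272 FPKM. VIM, vimentin, had a log2 fold change of −0.11 (adjusted p = 0.0104).

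Among matrix genes and proteases 7 of 23 rose (30.4%, against 30.9% of all genes) and 14 fell (60.9%, against 30.1%). Of the 23, 4 were called higher and 4 lower (median −0.37), where 7.30% and 5.24% of all genes were called. Structural genes of the lens capsule and its neighbours were on the falling side: LAMB1, a laminin chain, fell from 28.1 to 13.4 FPKM, COL12A1 fell from 61.9 to 16.5 FPKM and COL4A2, of collagen IV, fell from 32.9 to 19.1 FPKM. COL4A1, the partner of COL4A2, had a log2 fold change of −0.21 that turned to 0.042 once the trend with gene length was removed, and an adjusted p of 0.173 in the fit of all 12 libraries. Proteases and inhibitors were on the rising side: ADAMTS1 rose from 7.90 to 60.6 FPKM, PLAUR, the urokinase receptor, rose from 10.9 to 45.8 FPKM, and TIMP3 rose from 0.541 to 1.98 FPKM.

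The response was related to gene length over all genes tested. By genomic span, the median log2 fold change went from 0.20 in the shortest of 10 equal groups of genes to −0.37 in the longest, and the Spearman correlation over 15913 genes was −0.21, given as a description since genes are not independent and share libraries. In the shortest group 14.01% of genes were called higher and 5.15% lower, and in the longest 3.21% and 13.1%. In protein-coding genes alone the correlation was −0.25. After the median of each group was subtracted, the median was 2.55 for the p53 targets and −1.31 for the mitosis genes. Their median spans, 23440 and 29659.5 bases, were near that of all genes tested, 27150. Some lists of shorter genes moved by more of their median. The nuclear respiratory chain went from 0.14 to 0.023, interferon-stimulated genes from 0.15 to 0.010 and clustered histone genes from 0.34 to 0.20.

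**Figure D5:**
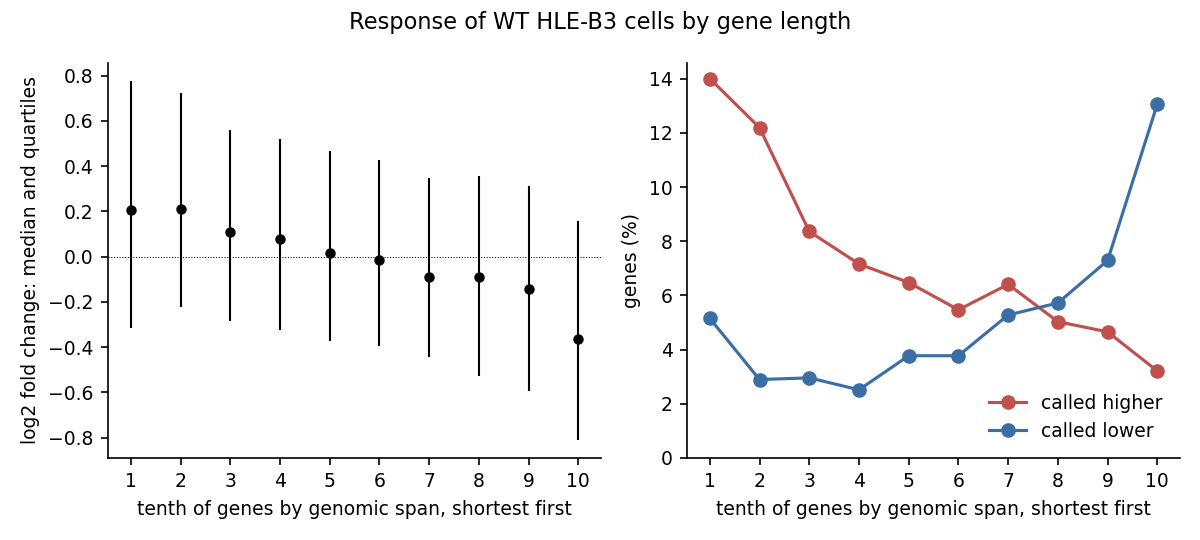
Median log2 fold change with H2O2 of genes in 10 equal groups by genomic span, with quartiles, and the share of genes called higher and lower in each group. The median goes from 0.20 in the shortest group to −0.37 in the longest.

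The response of WT cells was set beside that of ATG7 KO cells for the leading genes above. Across all genes, the difference between the responses passed at an adjusted p under 0.01 in 2366 of 16856 genes (14.0%). Without untreated ATG7 KO replicate 1, which had the lowest mean correlation with its group (0.978), the count was 5974, and without each other library in turn it was between 1332 and 2808. In CXCL8 the WT cells went from 52.7 to 732 FPKM and the ATG7 KO cells from 524 to 1034 FPKM, so that the KO cells started higher and changed less. IL6 went from 2.33 to 64.2 FPKM in WT and from 18.3 to 115 FPKM in ATG7 KO cells. HSPA6 reached 96.8 FPKM in WT and 2.58 FPKM in ATG7 KO cells. CDKN1A went from 49.5 to 1550.1 FPKM in WT and from 47.8 to 1689 FPKM in ATG7 KO cells, a difference of 0.17 on the log2 scale that did not pass (adjusted p = 0.247).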

How the data were processed

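The authors extracted RNA with Trizol from HLE-B3 cells and built libraries with a NEBNext Ultra kit. Per the submitters' processing notes, HISAT2 2.0.5 and featureCounts 1.5.0-p3 were used with GRCh38 (hg38). The strand setting and the handling of reads with several positions are not given in the sources used here. The authors deposited unnormalized read counts for 58735 genes and, derived from those counts, FPKM values scaled by the length of each gene and the size of each library. The study calls its libraries biological replicates, the labels name no separate cultures, and p-values measure the spread between 3 libraries a group, which may be technical.

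Under R 4.3.3, edgeR 4.0.16 was run on counts of the 6 WT libraries, beside limma 3.58.1 for FPKM (filterByExpr with a minimum count of 10, TMM scaling, robust quasi-likelihood fit, Benjamini-Hochberg adjustment over 15913 genes, no covariates). The responses of both genotypes were compared through the interaction of genotype and treatment, over 12 libraries. Library totals were between 15602183 and 17462594 reads and the common biological coefficient of variation was 0.047. Simulated counts of this comparison had 50 genes changed at each fold, and 15525 genes were tested. The fit called 24.0%, 72.9%, 83.7% and 98.0% of genes changed 1.25-, 1.5-, 2- and 4-fold, and 6 unchanged ones. The members and gene lists were chosen with earlier results of these data known. Named genes are (a) the 12 highest and 12 lowest called genes above 1 FPKM in both groups with no overlap, (b) key members of each list and up to 5 further members with the largest changes, (c) the 5 largest rises and 5 largest falls of mean FPKM, and (d) up to 5 called genes in each direction that crossed from under 0.1 to above 1 FPKM. Some genes the rule names are not reported here. Other genes are examples chosen after their values were seen. Promoters were taken from RefSeq on GRCh38.p14 and matched by symbol for 10837 of the genes tested. Gene coordinates are those of the deposited table. Alternatives were DESeq2 1.42.0, other scalings, filters, thresholds and libraries, limma on log2 FPKM with a pseudocount of 1 or 0.1, a replicate block and an offset for gene length, the last chosen after seeing the data. Counts of reads cover counting error only.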

Additional observations from a re-analysis of the deposited data

Results flagged for a closer look

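In 20 of the 39 leading genes, against 14.0% of all genes tested (2366 of 16856), the response of ATG7 KO cells differed from that of WT cells by the interaction test (adjusted p under 0.01). Most leading genes were chosen for the size of their response in the same WT libraries that enter this test, so the count and its direction are a description of these genes and support nothing. Values are the log2 response of ATG7 KO cells minus that of WT cells. Cytokine and signalling genes changed less in ATG7 KO cells: the difference was −2.82 for CXCL8, −2.13 for IL6, −0.98 for IL1B, −1.41 for CSF2, −3.93 for CSF3 and −1.77 for DUSP5. Of these, CXCL8, IL6 and CSF3 were higher in untreated ATG7 KO cells (524, 18.3 and 5.40 FPKM) than in untreated WT cells (52.7, 2.33 and 0.0677 FPKM). The stress genes RRAD, GADD45A, EFNB1 and SH2D2A, an adaptor of receptor kinases, also responded less and differed by −2.44, −1.39, −0.74 and −2.47, whereas GDF15 and ACER2 responded more and differed by 1.07 and 1.501. HSPA6 differed by −7.78, a fitted value that depends on a prior count because untreated WT libraries had at most 2 reads. PIF1 differed by −2.42 and KRT7-AS by 1.66.

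Mitochondrial transcripts differed in both kinds. The difference was −1.59 for MT-RNR1 and −0.75 for MT-RNR2, which rose in WT cells, and 0.75 for MT-CO1, 1.94 for MT-ATP8 and 1.91 for MT-TR, which fell in WT cells. Leaving out untreated ATG7 KO replicate 1 kept 19 of the 20 past the threshold, leaving out each other library in turn kept between 15 and 20, and none reversed.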

How the results depend on the processing

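The replicate numbers did not pair the libraries (correlations of same-numbered deviations −0.022, 0.018 and 0.0125). With the number as a replicate block, 1160 genes were called higher and 831 lower, 1158 and 827 of them in common with the fit without it, MALAT1 had an adjusted p of 0.0143, and 1992 genes differed between the genotypes. Genes called higher went from 1161 to 765 with limma on log2 of FPKM plus 1, to 719 with FPKM above 1 in both groups, to 1884 with no FPKM rule and to 750 when tested against a log2 fold change of 1. Genes called lower went from 834 to 283 with limma on FPKM plus 1 and 352 when tested against that fold. With limma on FPKM plus 0.1 they were 1110 higher and 724 lower. Leaving out 1 library gave 1126 to 1187 higher and 800 to 913 lower. DESeq2 called 1130 and 806. In the fit of all 12 libraries, counts of members that rose (for the lysosome and mesenchymal genes, fell) went to 2 for other antioxidant enzymes, 15 for G1/S, 3 for histones, 8 for the lysosome, 5 for the proteasome, 3 for the nuclear respiratory chain, 7 for ribosomal proteins, 4 for mesenchymal genes and 4 for interferon-stimulated genes. DESeq2 gave 2 for histones and 7 for the respiratory chain. Leaving out 1 library gave 2 to 4 for histones and 7 to 10 for the respiratory chain (7 without untreated replicate 2). List counts stayed within 1.5 times in 495 of 512 cases in the larger direction and 590 of 640 in the smaller. Named genes kept direction and call in 3590 of 3677 cases, and 18 lost the call in the fit of all 12 libraries. With the gene length offset, chosen after seeing the data, ATG7 (0.015) and COL4A1 (0.042) reversed, 1151 genes were called higher and 669 lower, and 21 DNA repair genes fell instead of 27. The correlation with gene length was −0.160 with DESeq2, −0.117 with no filter, −0.231 with at least 10 counts in every library, −0.203 with all 12 libraries, −0.227 with limma, and −0.228 to −0.197 leaving out 1 library. The count of genes that differed between the genotypes was 1332 to 5974 leaving out 1 library, and 3533 with DESeq2. The median of all genes moved by over 0.1 with no filter (0.20 over 34204 genes) and was 0.094 with DESeq2. Across settings 49.8% to 53.6% of calls were rises. The cause of these changes was not tested. In the simulated counts most 1.25-fold changes were not called, but few genes were changed there, which makes the adjusted threshold stricter. In the data 9712 genes passed, and smaller changes were among them in the main fit, such as DUSP3 (1.15-fold) and COL4A1 (1.16-fold). The simulation therefore does not give the smallest change that this comparison could call.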

Other observations

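In a list of growth factors chosen as stress-induced, 13 of 18 tested genes rose (72.2%, against 30.9% of all genes) and 2 fell. The median log2 fold change was 0.97, and the list does not stand for growth factors as a class. ANGPTL4, a secreted inhibitor of lipoprotein lipase, had 0.185, 0.241 and 0.250 FPKM without H2O2 and 18.8, 18.7 and 17.1 FPKM with it, and BMP2, a bone morphogenetic protein, had 0.0159, 0 and 0 FPKM in the untreated libraries and 0.262, 0.271 and 0.436 FPKM with H2O2. INHBA, an activin subunit, rose from 1.96 to 31.3 FPKM and its antagonist FST, follistatin, rose from 2.74 to 20.3 FPKM, while TGFB2, the transforming growth factor of the eye, fell from 9.74 to 4.46 FPKM. VEGFA, the angiogenic factor, rose from 7.73 to 35.4 FPKM. Targets of YAP were split, with 7 of 11 rising and 3 falling. CTGF, a matrix-associated growth modulator, rose from 54.3 to 153 FPKM, and AXL, a receptor kinase, fell from 417 to 236 FPKM. Of 21 tested interferon-stimulated genes 8 rose and 4 fell (median 0.15). ISG15, a ubiquitin-like modifier, rose from 7.71 to 19.1 FPKM.

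Metabolic lists had medians near that of all genes. In glycolysis 9 of 21 genes rose and 5 fell (median 0.11). HK2, the inducible hexokinase, rose from 6.45 to 13.5 FPKM, PFKFB3, which makes the activator of phosphofructokinase, rose from 11.3 to 38.4 FPKM, and LDHA, lactate dehydrogenase, had a log2 fold change of −0.14 (adjusted p = 0.00161, and 0.241 in the fit of all 12 libraries). In cholesterol and fatty acid synthesis 7 of 28 rose and 12 fell (median −0.11). ABCA1, the cholesterol exporter, rose from 2.64 to 16.5 FPKM. Of 55 clustered histone genes 16 had enough reads to test, 5 rose (31.25%, against 30.9% of all genes) and none fell.

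Some groups were chosen after their values were seen and are given as values only. Of 20 tested host genes of small nucleolar RNAs named SNHG, 12 rose, 1 fell and 8 were called higher, with a median of 0.83. MALAT1, a nuclear long non-coding RNA, had 59.8, 87.1 and 57.7 FPKM untreated and 17.9, 16.1 and 17.6 FPKM treated. NEAT1, the scaffold of paraspeckles, had a log2 fold change of −0.78 that did not pass (adjusted p = 0.0291, and 0.00049 in the fit of all 12 libraries). Of 16 ephrins and ephrin receptors 9 rose and 3 fell. Of 78 mitochondrial ribosomal protein genes 29 rose, 5 fell and 44 did not pass, with a median of 0.14.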
